A study of Saccharomyces cerevisiae with 36 samples.

Results

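The small subunit processome, the particle that makes the small ribosomal subunit's RNA from its precursor, was followed through the yeast metabolic cycle in 41 of the 5656 genes of Saccharomyces cerevisiae with a value. These members were chosen by name, as genes for processome proteins, and not by their measured values, but with earlier results of these data known. Each was matched by its symbol in the annotation of the array's probe sets. A gene with several probe sets was read from the one with the highest mean over all arrays. All 41 were measured, and 0 of their values were listed at 0. They fell into 7 UTP-A genes, 6 UTP-B genes, 4 genes of the U3 snoRNP, 3 genes of the MPP10 complex, the pair UTP22 and RRP5, 9 genes of the BMS1 and NOP14 modules and enzymes, and 10 single factors.

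The processome is a large nucleolar particle that forms on the 5′ part of the ribosomal RNA precursor while it is still being transcribed. It folds, modifies and cleaves the precursor so that the small ribosomal subunit can be released from it. It is built around the U3 snoRNA, a small nucleolar RNA that base-pairs with the precursor, and from protein modules that join in order, the UTP-A complex first. Its proteins are needed in the amounts at which cells make ribosomes, and in budding yeast their genes belong to the ribosome biogenesis genes, which respond together to nutrients and growth rate.

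Budding yeast in continuous culture, which passes through a repeating metabolic cycle of respiration, was sampled over 3 successive cycles. Each cycle was divided into 12 positions about 25 min apart, with 1 Affymetrix array of total RNA at each, which gave 12 groups of 3 arrays. No genotype, treatment or separate culture was named in the labels, and p-values here reflect array-to-array spread alone. That spread may be technical, and it also holds any shift of a gene's course between cycles. A value is a probe-set intensity in multiples of its array's median, and the number of arrays limits the precision. More cells in a given state and more RNA per cell cannot be told apart in such samples, and a rise is always relative to the array's median gene. Since a probe set's brightness also depends on its probes, intensities were compared between arrays and not between genes.

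The highest values of these genes lay in a burst about 1 array wide, which came 1 position earlier in cycles 2 and 3 than in cycle 1. In cycle 1 the members' median intensity was 1.04 at position 7, 1.75 at position 8, 7.87 at position 9 and 1.11 at position 10. In cycle 2 it was 1.29, 4.82, 1.55 and 1.01 at the same positions, and in cycle 3 it was 1.23, 7.89, 1.03 and 0.920. All 41 members were highest at position 9 of cycle 1, 39 were highest at position 8 of cycle 2, and 41 were highest at position 8 of cycle 3. The exceptions in cycle 2 were UTP22 and UTP20, which were highest at position 9.

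The rise into the burst was steep in every cycle. The intensity on the burst array was 2.43 to 8.07 times that on the array before it in cycle 1, with a median of 4.70 over the members. The same ratio was 1.91 to 8.35 with a median of 3.89 in cycle 2, and 2.69 to 21.1 with a median of 6.07 in cycle 3. Against the median of the other 11 arrays of its cycle, the burst array was a median of 8.62 times as bright in cycle 1, 5.23 times in cycle 2 and 8.53 times in cycle 3. The burst array of cycle 2 read the lowest of the 3 in 39 of 41 members, and the highest in 0. Where in the burst each array fell is not known.

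**Figure D1:**
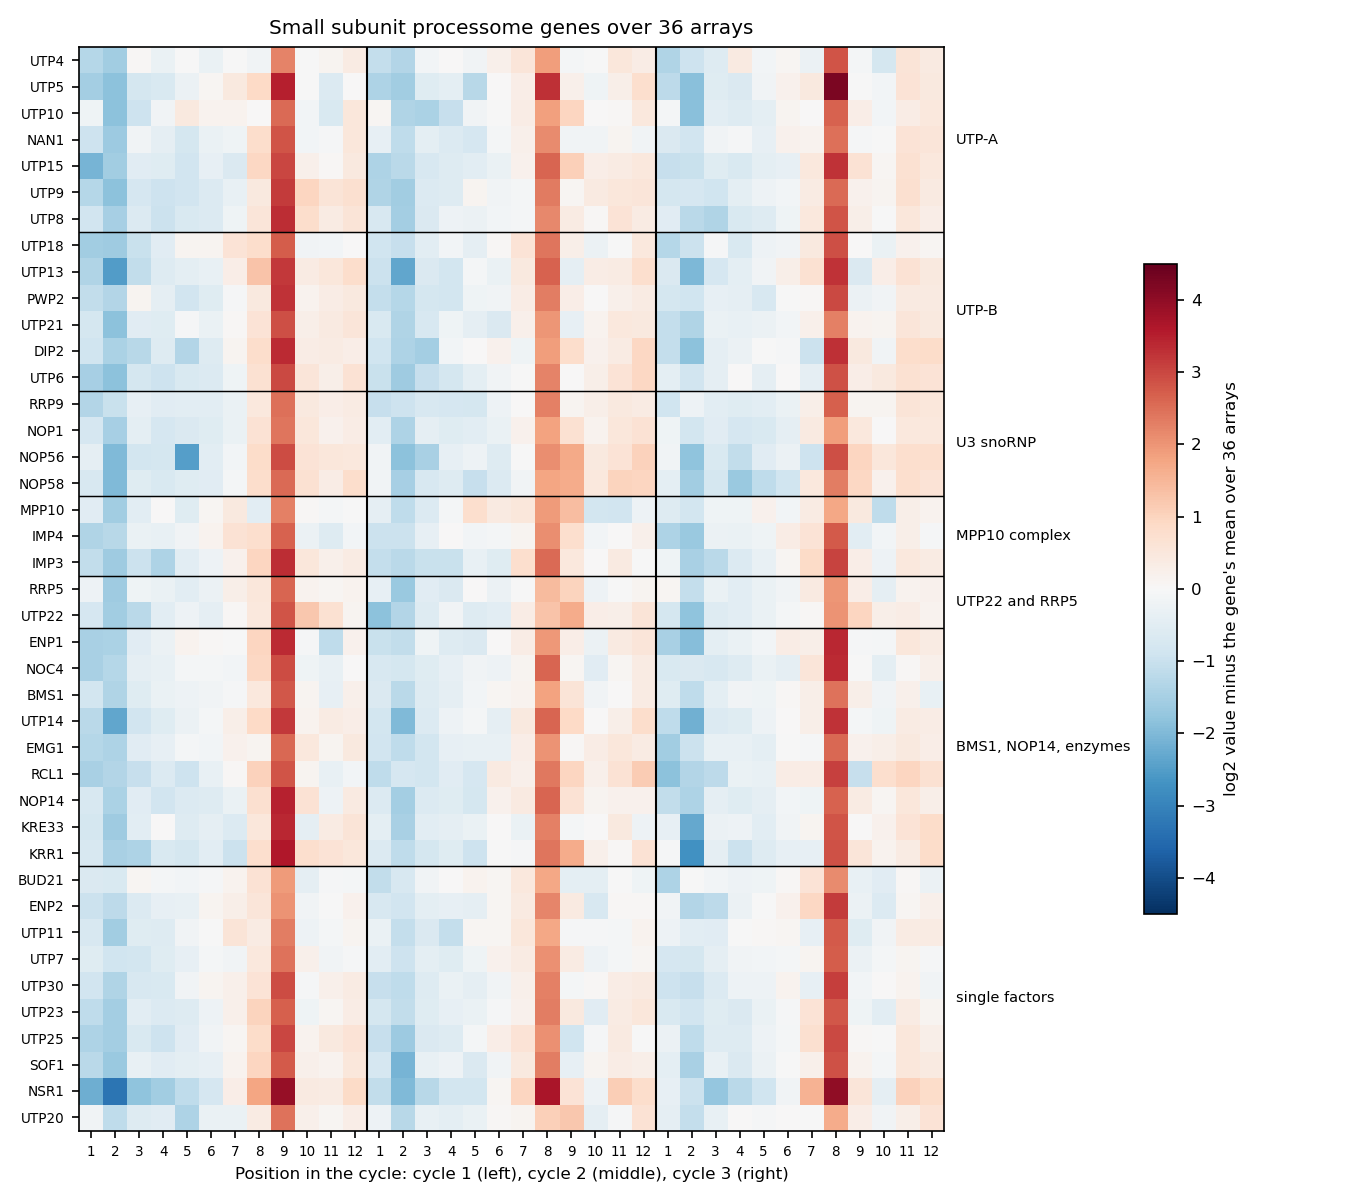
Log2 intensity of the 41 members on the 36 arrays, each gene minus its own mean, with genes in rows by module and ordered by fitted peak within each module, and positions 1 to 12 of cycles 1, 2 and 3 in columns. The darkest red column is position 9 in cycle 1 and position 8 in cycles 2 and 3, and the blue columns at the left of each cycle are positions 1 and 2.

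The arrays that carry the burst were also compared in measures outside the members. Over all genes, the array at position 9 of cycle 1 had a correlation of 0.954 with position 8 of cycle 3 and of 0.833 with position 9 of cycle 3, the lowest among arrays of the same position, whose median was 0.976. The geometric mean of 9 spike-in control probe sets, which report labelled RNA added by the laboratory, was 3.53 on the burst array of cycle 1, 1.66 in cycle 2 and 2.41 in cycle 3. On the other 33 arrays it lay between 1.29 and 4.00, so the burst arrays were within that range. The ratio of the 3′ to the 5′ actin probe set, a measure of RNA integrity, was 1.84, 1.42 and 1.25 on the burst arrays of cycles 1, 2 and 3, against 1.41 to 2.00 on the others. The part of these control values in the heights of the bursts was not tested.

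A cosine with a period of 12 positions was fitted with limma to log2(value + 0.0516) of every gene, where the added pseudocount keeps dim values from dominating and lessens their fold changes. A gene was called cycling at an adjusted p (Benjamini-Hochberg, over all 5656 genes) under 0.05, and its swing is the fitted peak minus trough in log2. All 41 members were called cycling, where 78.8% of all genes were, so that call alone says little about them. All 41 had a swing of at least 2-fold, against 38.1% of all genes. Their swings ran from 1.23 to 3.62 with a median of 1.95, and the median over all genes was 0.77. With a pseudocount of 1, which compresses dim genes, 29 of the 41 kept a swing of at least 2-fold, against 20.9% of all genes. Fitted peaks ran from position 7.49 to 9.36 with a median of 8.63. They lay between 8 and 9 in 32 members, before 8 in 3 and after 9 in 6.

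Positions 8 and 9 together were compared with positions 2 and 3 in a fit with 1 level per position, called the burst contrast. All 41 members were higher at positions 8 and 9 (limma, adjusted p from 1.22e-11 to 0.000169), against 29.2% of all genes. The difference ran from 1.22 to 4.26 in log2 with a median of 2.39, and the median over all genes was -0.07. These calls were made for 41 members without each cycle in turn.

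Outside the burst the members still followed the cycle. With all 6 arrays of positions 8 and 9 left out, a fit chosen after the values were seen, 41 members were called cycling, against 73.9% of all genes. Of these, 32 kept a swing of at least 2-fold, against 31.3% of all genes, and the median swing was 1.37. The low point came soon after the start of the numbered cycle. The members' median intensity was 0.298, 0.373 and 0.427 at position 2 of cycles 1, 2 and 3, and 1.25, 1.37 and 1.29 at position 12. Position 1 or 2 was the lowest in 39 members in cycle 1, in 38 in cycle 2 and in 34 in cycle 3, and in all 3 cycles in 30 members.

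The mean of positions 1 and 2 was set against that of positions 11 and 12, a dip contrast also chosen after the values were seen. It was lower at positions 1 and 2 in 39 of 41 members (limma, adjusted p under the threshold of 0.05), against 18.8% of all genes. The median difference over the members was -1.51 in log2, and 0.05 over all genes. The members that missed the threshold were MPP10, with a difference of -0.72 ± 0.31 (SE) and adjusted p = 0.0564, and UTP7, with -0.71 ± 0.29 (SE) and adjusted p = 0.05004. The count was 41 without cycle 1, 26 without cycle 2 and 32 without cycle 3, against 17.7%, 9.39% and 13.8% of all genes.

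The sides of the burst differed in both directions. Positions 10 and 11 minus positions 6 and 7 gave a median difference of 0.08 in log2. The differences ran from -0.71 to 0.96, above 0 in 27 members and below 0 in 14. Positions 10 and 11 were lower than positions 6 and 7 in 0 members by limma, against 23.2% of all genes, and 1 member reached an unadjusted p under 0.05, against 25.7% of all genes. They were higher in 3 members, against 24.8% of all genes. Those 3 were NOP56, NOP58 and UTP22, and none of the 3 was called in every fit that left out a cycle. The count was 5 without cycle 1, 0 without cycle 2 and 1 without cycle 3, against 22.1%, 16.5% and 21.8% of all genes. Without cycle 1, 3 members were called lower, against 22.6% of all genes. In this contrast the burst's move between cycles counts as spread, so the low counts do not show even sides. The pairs of positions also lie at unequal distances from the burst, and these distances differ between cycles. A component with a period of 6 positions was called in 0 members (limma), against 12.4% of all genes. An unadjusted p under 0.05 was reached by 1 member, against 27.4% of all genes. The median swing of that component was 0.34 in the members and 0.29 over all genes. The burst's move counts as spread here too, so the count of 0 does not show a smaller component.

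**Figure D2:**
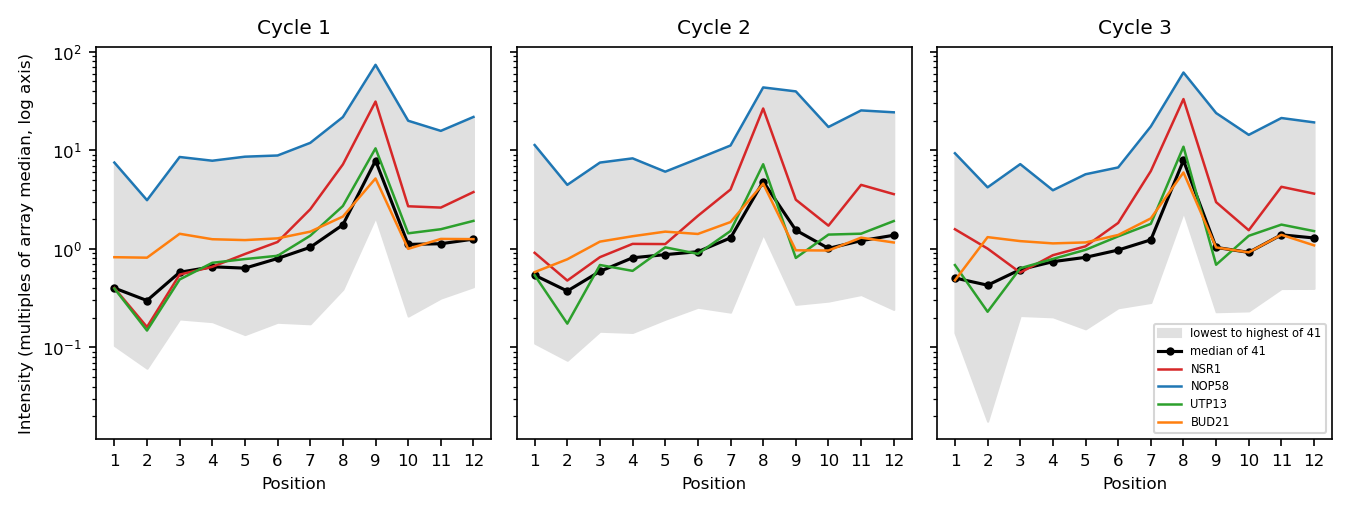
Intensity in multiples of the array median, on a log axis, against position in cycles 1, 2 and 3. The black line is the median of the 41 members, the grey band runs from the lowest to the highest member, and coloured lines are NSR1, NOP58, UTP13 and BUD21. The median peaks at 7.87, 4.82 and 7.89, and NOP58 stays near its peak at position 9 of cycle 2 while UTP13 has fallen to 0.808.

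UTP-A is the first protein module to bind the precursor, and its members are also known as t-UTPs for their link to transcription of the ribosomal DNA. All 7 of its genes were higher at positions 8 and 9 than at 2 and 3, and all 7 were lower at positions 1 and 2 than at 11 and 12. UTP5, a WD-repeat protein with the largest swing of the module, had intensities of 1.01, 1.41, 8.76 and 0.718 at positions 7, 8, 9 and 10 of cycle 1, 0.913, 7.62, 0.862 and 0.630 in cycle 2 and 1.01, 14.8, 0.732 and 0.667 in cycle 3. It stood at its burst level on 1 array per cycle and below 1.5 on both neighbours. Its swing was 2.63 ± 0.43 (SE), with adjusted p = 7.61e-06 (limma). UTP4, another WD-repeat protein, had the smallest swing of the module. Its intensities were 0.437, 0.389, 2.25 and 0.437 at positions 7, 8, 9 and 10 of cycle 1, 0.659, 1.75, 0.417 and 0.434 in cycle 2 and 0.357, 3.49, 0.417 and 0.234 in cycle 3. In cycle 1 UTP4 had not risen at position 8, where the members' median had. Its swing was 1.46 ± 0.34 (SE), with adjusted p = 9.77e-04 (limma). The other UTP-A genes, UTP8, UTP9, UTP10, UTP15 and NAN1, had swings between 1.61 and 2.42. UTP10, a long protein of HEAT repeats, kept the largest share of its burst among the UTP-A genes in cycle 2, with 4.01 at position 9 after 7.54 at position 8.

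UTP-B is a second module of the particle, made mostly of WD-repeat proteins. All 6 of its genes passed both the burst and the dip contrasts. UTP13 had the largest swing of the module and the intensities 1.36, 2.72, 10.5 and 1.44 at positions 7, 8, 9 and 10 of cycle 1, 1.52, 7.22, 0.808 and 1.39 in cycle 2 and 1.79, 10.9, 0.689 and 1.36 in cycle 3. It fell further after the burst than most members, to 0.112 of its burst value on the next array in cycle 2 and to 0.0634 in cycle 3. It also had a deep low point, with 0.148, 0.174 and 0.230 at position 2 of cycles 1, 2 and 3. UTP13's swing was 2.57 ± 0.40 (SE), with adjusted p = 2.41e-06 (limma). UTP21 had the smallest swing of the module, 1.84 ± 0.31 (SE), with intensities of 1.04, 1.56, 7.65 and 1.19 at positions 7, 8, 9 and 10 of cycle 1, 1.16, 4.07, 0.759 and 1.12 in cycle 2 and 1.18, 5.04, 1.11 and 1.09 in cycle 3. The burst of UTP21 was on the same arrays as that of UTP13, and its values at position 2 were 0.238, 0.358 and 0.355. PWP2, DIP2, UTP6 and UTP18 had swings between 1.88 and 2.28. Among the UTP-B genes the fitted peak ran from 8.12 in UTP18 to 9.01 in UTP6.

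The U3 snoRNP holds NOP1, the fibrillarin methyltransferase, its core partners NOP56 and NOP58, and RRP9, which binds U3 alone. NOP1, NOP56 and NOP58 are shared with the other box C/D snoRNPs, which guide methylation of ribosomal RNA. These 4 genes had the latest fitted peaks as a module, from 8.96 to 9.36, where the UTP-A genes lay between 8.16 and 8.94. NOP56 had the largest swing of the module and the intensities 2.12, 4.07, 18.0 and 3.54 at positions 7, 8, 9 and 10 of cycle 1, 2.25, 10.0, 7.62 and 3.13 in cycle 2 and 1.19, 17.2, 4.48 and 3.32 in cycle 3. NOP58 had intensities of 11.9, 21.8, 73.8 and 20.0 at positions 7, 8, 9 and 10 of cycle 1, 11.2, 43.5, 39.6 and 17.3 in cycle 2 and 17.5, 61.6, 23.9 and 14.4 in cycle 3. Both fell more slowly than the members' median after the burst, and in cycle 2 they held 0.762 and 0.912 of their burst value on the next array. At position 2, NOP58 stood at 3.12, 4.46 and 4.21 in cycles 1, 2 and 3. The swing was 2.73 ± 0.35 (SE) for NOP56 and 2.56 ± 0.28 (SE) for NOP58. NOP1 had intensities of 4.41, 8.76, 29.7 and 7.90 at positions 7, 8, 9 and 10 of cycle 1, 6.24, 19.5, 8.96 and 6.18 in cycle 2 and 7.34, 20.4, 7.68 and 5.55 in cycle 3, and its swing was 1.86 ± 0.24 (SE). RRP9, with the smallest swing of the 4 at 1.81 ± 0.30 (SE), had intensities of 1.15, 2.01, 8.20 and 1.95 at positions 7, 8, 9 and 10 of cycle 1, 1.45, 7.10, 1.56 and 1.73 in cycle 2 and 1.72, 9.52, 1.58 and 1.56 in cycle 3. In cycles 2 and 3 RRP9 dropped straight back after the burst, as most members did, while the 3 shared proteins kept more of it.

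NOP58 had 4 probe sets. The 3 not used had means of 11.2, 7.41 and 0.654, fitted peaks of 9.09, 8.74 and 8.97, and correlations with the one used of 0.979, 0.876 and 0.761 over the 36 arrays. The hold after the burst of cycle 2 appeared on each of them, with 30.9 then 23.7, 17.8 then 15.4, and 1.53 then 1.11 at positions 8 and 9.

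The MPP10 complex, in which IMP3 and IMP4 help U3 pair with the precursor and MPP10 holds them together, had early fitted peaks in 2 of its 3 genes. MPP10 had intensities of 0.947, 0.490, 3.52 and 0.727 at positions 7, 8, 9 and 10 of cycle 1, 1.00, 2.74, 1.88 and 0.367 in cycle 2 and 0.902, 2.43, 0.968 and 0.287 in cycle 3. It was unlike most members in cycle 1, where position 8 was lower than position 7, and in cycles 2 and 3 it fell to 0.367 and 0.287 at position 10. Its swing was 1.49 ± 0.30 (SE) and its fitted peak 7.76. IMP4 had intensities of 3.01, 3.23, 12.2 and 1.58 at positions 7, 8, 9 and 10 of cycle 1, 2.08, 8.13, 3.24 and 1.72 in cycle 2 and 2.90, 13.1, 1.35 and 1.74 in cycle 3, with a swing of 1.95 ± 0.30 (SE) and a fitted peak of 7.93. IMP4 was already well above its low points before the burst, at 2.12, 1.78 and 2.37 at position 6 of cycles 1, 2 and 3, against 0.758, 0.934 and 0.565 at position 2. IMP3, with the largest swing of the complex at 2.57 ± 0.32 (SE), had intensities of 1.01, 1.77, 9.29 and 1.28 at positions 7, 8, 9 and 10 of cycle 1, 1.53, 5.43, 1.25 and 0.897 in cycle 2 and 1.63, 7.50, 1.09 and 0.733 in cycle 3. Its fitted peak of 8.66 was close to the median of the 41 members.

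UTP22 belongs to the UTP-C module, and RRP5 is a long RNA-binding protein needed for both ribosomal subunits. UTP22 had intensities of 1.97, 2.66, 14.0 and 4.52 at positions 7, 8, 9 and 10 of cycle 1, 2.46, 4.69, 6.21 and 2.36 in cycle 2 and 1.97, 7.89, 3.79 and 2.34 in cycle 3. Its burst of cycle 2 was the smallest and was higher at position 9 than at position 8, unlike in cycle 3. RRP5 had intensities of 3.89, 4.55, 20.1 and 3.61 at positions 7, 8, 9 and 10 of cycle 1, 3.16, 8.67, 6.40 and 2.72 in cycle 2 and 4.26, 13.0, 3.92 and 2.39 in cycle 3. RRP5 also kept most of its burst at position 9 of cycle 2, although it was highest at position 8. The swing was 2.32 ± 0.27 (SE) for UTP22 and 1.58 ± 0.27 (SE) for RRP5.

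UTP22 and UTP20, a long protein of HEAT repeats, were the members highest at position 9 in cycle 2, and both were among the 3 members with several probe sets. UTP22 had 6 probe sets. The next brightest, with a mean of 1.06, read 2.59 at position 8 and 2.16 at position 9 of cycle 2, so that it fell where the one used rose from 4.69 to 6.21. UTP20 had 10 probe sets. Its intensities on the one used were 1.09, 1.75, 7.68 and 1.58 at positions 7, 8, 9 and 10 of cycle 1, 1.48, 2.90, 3.19 and 1.02 in cycle 2 and 1.34, 4.43, 1.70 and 1.22 in cycle 3. The next brightest of UTP20, with a mean of 0.931, read 1.82 and then 1.45 at positions 8 and 9 of cycle 2. On the 2 brightest probe sets of each gene the direction of that step therefore differed, while on all 4 the value at position 9 was more than 0.5 of that at position 8. The third brightest differed between the genes, since that of UTP22, with a mean of 0.257, fell from 1.13 to 0.229, and that of UTP20, with a mean of 0.465, rose from 0.951 to 1.09.

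The BMS1 and NOP14 modules and enzymes act on the central and 3′ parts of the small subunit RNA. BMS1 is a GTPase, RCL1 its partner in a cleavage of the precursor, NOP14 and NOC4 bind each other, EMG1 is a methyltransferase, and KRE33 an RNA acetyltransferase. UTP14 activates an RNA helicase that removes U3, and KRR1 and ENP1 are assembly factors of the forming subunit. All 9 genes passed both the burst and the dip contrasts. KRR1 had the largest swing of them and the intensities 0.281, 1.04, 7.87 and 1.05 at positions 7, 8, 9 and 10 of cycle 1, 0.575, 3.41, 2.00 and 0.714 in cycle 2 and 0.450, 4.68, 0.888 and 0.667 in cycle 3. It rose from 0.281, 0.575 and 0.450 at position 7 of cycles 1, 2 and 3, and in cycle 2 it kept 0.585 of its burst at position 9. Its swing was 2.55 ± 0.37 (SE) and its fitted peak 9.15. BMS1 had the smallest swing, 1.71 ± 0.27 (SE), with intensities of 1.09, 1.59, 8.24 and 1.24 at positions 7, 8, 9 and 10 of cycle 1, 1.29, 4.09, 1.72 and 1.01 in cycle 2 and 1.39, 6.47, 1.37 and 1.02 in cycle 3. BMS1 had its burst on the same arrays as KRR1. UTP14 had values of 0.148, 0.206 and 0.175 at position 2 of cycles 1, 2 and 3. Its difference between positions 1 and 2 and positions 11 and 12 was -2.01 ± 0.33 (SE) in log2, the third largest of the 41 after those of NSR1 and UTP13. The other 6 genes had swings between 1.80 and 2.34.

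Of the 10 single factors, which join outside the named modules, all 10 passed the burst contrast and 9 passed the dip contrast. NSR1, the yeast relative of nucleolin with RNA-binding and glycine- and arginine-rich regions, had the largest swing of the 41, 3.62 ± 0.46 (SE), which was number 99 among all genes. Its intensities were 2.52, 7.19, 31.3 and 2.70 at positions 7, 8, 9 and 10 of cycle 1, 4.00, 26.6, 3.15 and 1.72 in cycle 2 and 6.15, 33.1, 2.98 and 1.54 in cycle 3. NSR1 rose over more than 1 array, being 2.85, 1.85 and 3.36 times as high on the array before the burst as on the one before that in cycles 1, 2 and 3. Over the members the medians of that step were 1.70, 1.27 and 1.19. IMP3 was the only other member with a step of at least 1.5 in every cycle, at 1.76, 2.59 and 1.77. At position 2, NSR1 stood at 0.161, 0.476 and 1.01. BUD21, also known as UTP16, had the smallest swing, 1.23 ± 0.26 (SE), and the earliest fitted peak, 7.49. Its intensities were 1.49, 2.13, 5.18 and 0.999 at positions 7, 8, 9 and 10 of cycle 1, 1.87, 4.59, 0.966 and 0.961 in cycle 2 and 2.04, 5.96, 1.03 and 0.920 in cycle 3. Its burst was on the same arrays as the others, but the array after its burst, at 0.999, 0.966 and 1.03 in cycles 1, 2 and 3, was below every array from position 3 to position 7 of the same cycle. UTP7, a WD-repeat protein that missed the threshold of the dip contrast, had intensities of 0.718, 1.15, 4.62 and 0.965 at positions 7, 8, 9 and 10 of cycle 1, 1.06, 3.55, 1.06 and 0.695 in cycle 2 and 0.894, 5.71, 0.675 and 0.770 in cycle 3. Its burst was on the same arrays as that of most members, and its values at position 2 were 0.416, 0.402 and 0.450 in cycles 1, 2 and 3. The WD-repeat proteins UTP7, SOF1 and ENP2 and the proteins UTP11, UTP23, UTP25 and UTP30 had swings between 1.47 and 2.06.

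**Figure D3:**
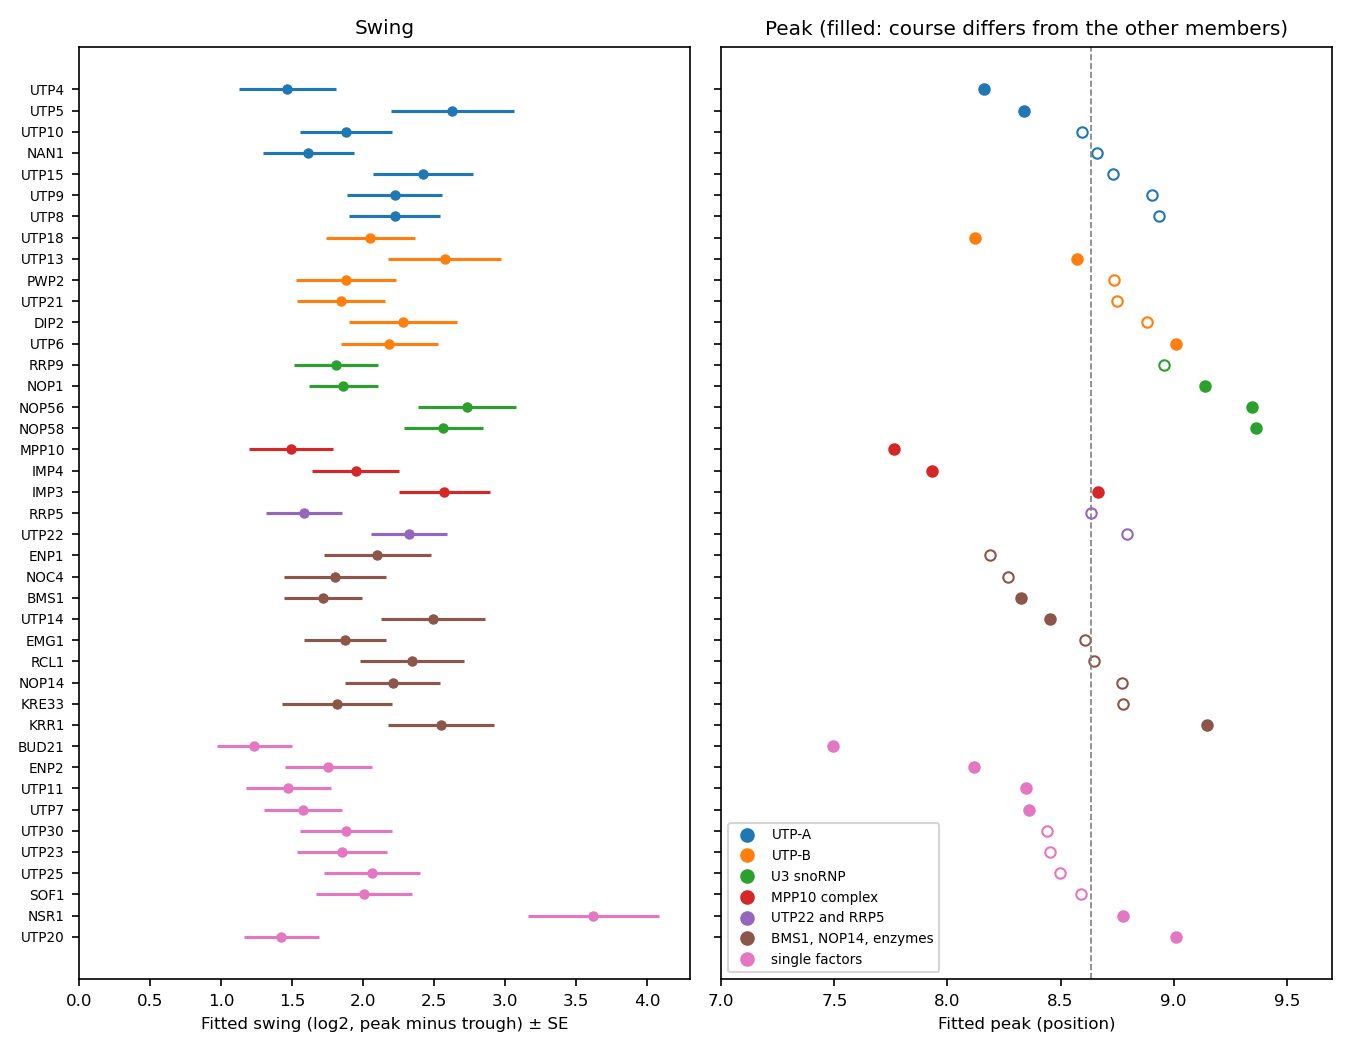
Fitted swing in log2 with its SE (left) and fitted peak position (right) of the 41 members, coloured by module, with the members' median peak of 8.63 as a dashed line. Filled points on the right are the 20 members whose course differed from the mean of the other members; the U3 snoRNP genes lie right of the line and MPP10, IMP4 and BUD21 farthest left.

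The members were set against each other by fitting the cosine to each gene's log2 value minus the mean of the other 40. The course differed from that of the others in 20 of 41 members, against 96.7% of all genes measured the same way against the members' mean. Leaving out cycle 1, 2 or 3 left 5, 13 and 11 members called, against 93.4%, 94.1% and 94.9% of all genes. In each of those fits 5 were called, namely BUD21, MPP10, NOP56, NOP58 and NSR1. NSR1 had the largest difference, 1.67 ± 0.28 (SE) in log2 with adjusted p = 3.84e-06 (limma), highest at position 8.95, where it rose above the others. BUD21 differed by 1.23 ± 0.20 (SE), adjusted p = 2.72e-06, and was highest relative to the others at position 3.80, far from the burst. NOP58 and NOP56 differed by 1.05 ± 0.22 (SE) and 1.16 ± 0.24 (SE), with adjusted p = 1.33e-04 and 1.44e-04, and stood highest relative to the others at positions 10.9 and 10.7, after the burst. MPP10 differed by 0.96 ± 0.24 (SE), adjusted p = 0.00145, highest at 4.11, and IMP4 by 0.74 ± 0.18 (SE), adjusted p = 7.64e-04, highest at 5.13. UTP4 differed by 0.70 ± 0.19 (SE), adjusted p = 0.00345, highest at 3.68, and KRR1 by 0.83 ± 0.23 (SE), adjusted p = 0.00365, highest at 10.5. IMP4, UTP4 and KRR1 were not called in every fit without a cycle. As a description, the correlation of a member with the mean of the others over the 36 arrays ran from 0.810 to 0.979 with a median of 0.951.

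The members fell from the burst to different degrees. On the array after it, the ratio to the burst value was 0.0586 to 0.324 in cycle 1 with a median of 0.150, and 0.0495 to 0.480 in cycle 3 with a median of 0.152. In cycle 2 it was 0.112 to 1.33 with a median of 0.263. In that cycle 8 members kept at least 0.5 of the burst, which were UTP22, UTP20, NOP58, NOP56, RRP5, MPP10, KRR1 and UTP10. The steepest falls of cycle 2 were those of UTP13, UTP5, UTP25 and NSR1, to between 0.112 and 0.119. The ratios ranked the members in a similar order in different cycles, with a Spearman correlation across the 41 genes of 0.439 between cycles 1 and 2, 0.534 between cycles 2 and 3 and 0.615 between cycles 1 and 3. These are descriptions over genes that share their arrays. The same ratio had a Spearman correlation with coding length of -0.06, 0.13 and 0.23 in cycles 1, 2 and 3, and with mean intensity of 0.29, 0.33 and 0.25.

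**Figure D4:**
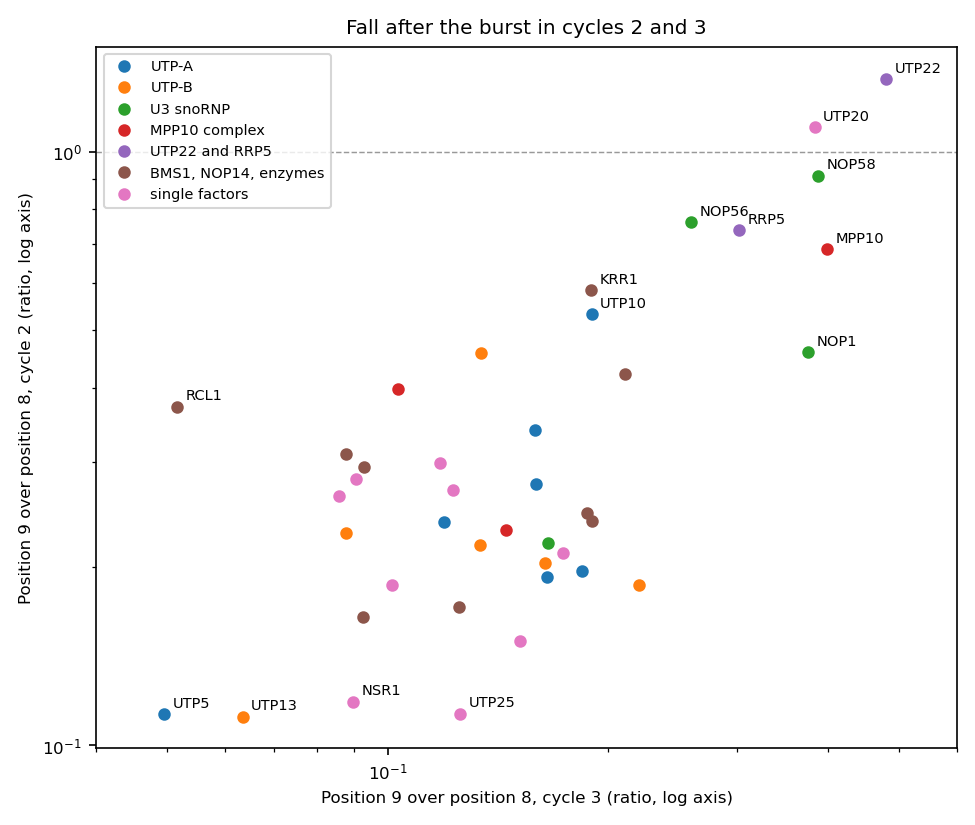
Intensity at position 9 over that at position 8 in cycle 3 (horizontal) and cycle 2 (vertical), both on log axes, for the 41 members coloured by module. UTP22 and UTP20 lie above the dashed line at 1 in cycle 2, the named genes at the upper right kept the most in both cycles, and UTP5 and UTP13 at the lower left the least.

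The cycles were compared gene by gene. The course over the cycle, as the 12-position cosine, differed between cycles in 0 of 41 members (limma), against 0.0354% of all genes, and 0 members reached an unadjusted p under 0.05, against 4.61% of all genes. With terms of 6 positions added it was also 0 members, and 0 of all genes. The level, adjusted for position, differed between cycles in 0 members (limma), against 0.053% of all genes, with 0 members at an unadjusted p under 0.05, against 5.73% of all genes. The shift of level from cycle 1 ran from -0.16 to 0.35 in cycle 2 and from -0.11 to 0.45 in cycle 3, in log2. A smooth curve over 12 positions does not resolve a burst that moves by 1 array. In the test of level that move counts as spread, so the count of 0 does not show steadier levels than in other genes. The direct step from position 8 to position 9 was up in 41 members in cycle 1, down in 39 in cycle 2 and down in 41 in cycle 3, and with 1 array at each position of a cycle it was not tested.

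The processome was set beside the other genes of ribosome synthesis. Of 37 other genes of small subunit assembly, 35 were called cycling, 34 of them swinging at least 2-fold. In 36 of the 37, positions 8 and 9 were higher than positions 2 and 3. Over all genes the shares of these calls were 78.8%, 38.1% and 29.2%. Their median swing was 1.64, from 0.62 in CMS1 to 2.26 in ROK1, an RNA helicase, with PRP43, a helicase shared with splicing, at 2.17. Of 57 genes of large subunit assembly, all 57 were called cycling and higher at positions 8 and 9, and 55 swung at least 2-fold. Their median swing was 1.88, with the helicase DBP3 at 3.25, the export factor ARX1 at 2.73 and LOC1 at 0.67. The course differed from the processome mean in 23 of the 37 small subunit assembly genes and in 32 of the 57 large subunit assembly genes, next to the 20 of 41 members. The lists were not tested against each other.

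RNA polymerase I, which makes the precursor that the processome works on, was less uniform. Of its 18 subunits and initiation factors, 16 were called cycling, 10 of them swinging at least 2-fold, and 12 were higher at positions 8 and 9. The same calls took in 78.8%, 38.1% and 29.2% of all genes. The subunits RPA43 and RPA135 had swings of 2.73 and 2.40, and the initiation factor RRN10 had one of 0.24 with adjusted p = 0.168 (limma). The list's median swing was 1.13.

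The small subunit ribosomal proteins had a broader and lower wave. Of 33 such genes with a value, 32 were called cycling, against 78.8% of all genes. Of these, 17 swung by at least 2-fold, against 38.1% of all genes, and the list's median swing was 1.01. Positions 8 and 9 were higher than positions 2 and 3 in 32 of the 33, against 29.2% of all genes. All 33 differed in course from the processome mean, as did 96.7% of all genes. RPS26B had the largest swing at 2.58, with RPS28B at 1.72, and RPS26A the smallest at 0.03, and since these genes come in nearly identical pairs, single values are uncertain where a probe set picks up both copies. Over the 33 genes the median intensity was 23.4, 49.7 and 35.3 at positions 8, 9 and 10 of cycle 1, 29.7, 35.6 and 27.1 in cycle 2, and 37.7, 33.9 and 24.8 in cycle 3. On the array after the processome's burst this median was 35.3, 35.6 and 33.9, against 22.0, 19.4 and 21.9 at position 7 of cycles 1, 2 and 3. The processome's median was also above position 7 there in cycles 1 and 2, at 1.11 against 1.04 and 1.55 against 1.29. In cycle 3 it was below, at 1.03 against 1.23. The list's fitted peak came 0.52, 0.59 and 0.43 positions after that of the processome in cycles 1, 2 and 3, a mean of 0.51 ± 0.08 (SD, n = 3 cycles). The fitted peak of the large subunit assembly list came 0.19 ± 0.05 positions (SD, n = 3 cycles) before that of the processome. For the other small subunit assembly list it came 0.28 ± 0.14 before, and for RNA polymerase I 0.06 ± 0.03 before. These 4 lags were shorter than 1 sampling interval and describe the fitted cosine over all positions, not the burst array. The mean log2 value of the processome, both assembly lists and RNA polymerase I was highest at positions 9, 8 and 8 of cycles 1, 2 and 3. That of the ribosomal proteins was highest at positions 9, 9 and 8.

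**Figure D5:**
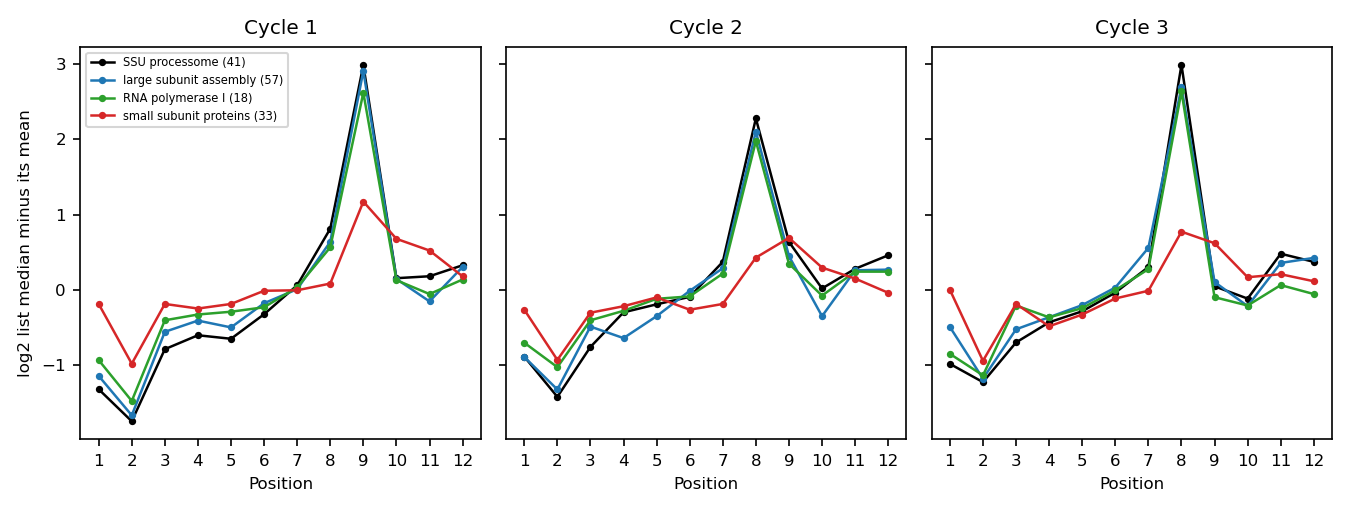
Log2 of the list's median intensity minus its mean over 36 arrays, against position in cycles 1, 2 and 3, for the processome, large subunit assembly, RNA polymerase I and small subunit ribosomal proteins. The first 3 lists share the narrow burst at position 9, 8 and 8, and the ribosomal proteins form a lower wave that is highest at position 9 in cycle 2.

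Casein kinase 2 is a protein kinase that joins UTP22 and RRP7 in UTP-C and has many other roles. Of its 4 subunit genes, 2 were called cycling, 0 with a swing of at least 2-fold, against 78.8% and 38.1% of all genes. The 2 called were CKB1 and CKA2, with swings of 0.41 and 0.39 (limma, adjusted p = 0.00674 and 0.0361). Both were also higher at positions 8 and 9 than at 2 and 3, as were 29.2% of all genes. CKA1 and CKB2 had swings of 0.49 and 0.24 and were not called (adjusted p = 0.200 and 0.205). All 4 differed in course from the processome mean, which is near the 96.7% of all genes.

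The PAC and RRPE elements are short promoter motifs of ribosome biogenesis genes in yeast, bound by the repressors DOT6 and TOD6 and by STB3, and the activator SFP1 acts on many of the same genes. The 4 genes for these factors were all called cycling, where 78.8% of all genes were, so that call alone says little about them. TOD6 had a swing of 1.89 with a fitted peak at 7.03 and was higher at positions 8 and 9 than at 2 and 3, with adjusted p = 1.49e-05 (limma). Its highest arrays were still the processome's burst arrays, with 10.8 at position 9 of cycle 1 and 3.71 and 9.73 at position 8 of cycles 2 and 3. SFP1 had a swing of 0.40 with a fitted peak at 8.10 and was also higher there, with adjusted p = 0.00309. STB3 had a swing of 0.69 with its peak at 3.02 and was lower there, with a difference of -0.80 in log2 and adjusted p = 5.39e-05. DOT6 had a swing of 0.85 with its peak at 4.16, and its difference of -0.24 did not pass (adjusted p = 0.151). These are transcript levels, and promoter sequences were not used here.

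The genes outside the 41 whose log2 values were most like the members' mean over the 36 arrays were, in order of Pearson correlation, URA7, GCD10, DRS1, RRP8, NOG1, RPA49, RLP24, PWP1, RRB1 and TRM82, from 0.989 down to 0.977. URA7 encodes CTP synthetase, GCD10 and TRM82 subunits of methyltransferases that act on tRNA, and RRP8 a methyltransferase of ribosomal RNA. DRS1, NOG1, RLP24 and PWP1 act in ribosome assembly, RRB1 is a chaperone of a large subunit protein, and RPA49 is a subunit of RNA polymerase I. Of the first 50 genes in that order, 17 were in the large subunit assembly list, 9 in the small subunit assembly list, 6 in that of RNA polymerase I and 0 among the small subunit ribosomal proteins. This likeness describes the same arrays and carries no test.

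In the gene order of the R64 assembly, 16 members had a divergent protein-coding neighbour upstream, of which 15 were measured, and 5 of the 15 were higher at positions 8 and 9 than at 2 and 3, next to the 29.2% of all genes. Of the upstream neighbours on the same strand, 11 of 23 measured were higher there, and of the downstream neighbours 10 of 19 on the same strand and 7 of 20 on the opposite strand. These counts were looked at after the values were seen and carry no test. None of the measured neighbours on either side was itself one of the 41.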

How the data were processed

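The deposited values are intensities per Affymetrix probe set on a linear scale, with the median of every array at 1, from the values. The authors' probe summarisation and scaling are not stated in the labels used here. No detection calls were used here. Arrays were assigned to a position and a cycle from their descriptions.

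The platform annotation, which can be old, paired 6504 of 9335 probe sets with 1 symbol and 328 with several, and 2443 were unlisted. The 5656 genes were read from the probe set with the highest mean, with no filter on low values, as log2(value + 0.0516). This pseudocount equals the 10th percentile of all values above 0. Tests used limma 3.58.1 in R 4.3.3, two-sided, with a trend of variance on mean. Benjamini-Hochberg adjustment ran over all genes. The tests were first tested on simulated data. Descriptions and plots used pandas 2.3.3, numpy 2.4.6 and matplotlib 3.10.9 in Python 3.11.15.

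The members and comparison lists were chosen with earlier results of these data known. All 41 members could be named. Values were given in full for the members with the largest and smallest swing of each module, the 8 with the smallest adjusted p for a course unlike the other members, the 3 with fitted peaks farthest from the median, those missing a test that most passed, and NSR1. Of each comparison list the genes with the 2 largest swings and the smallest were named, and the 10 genes most like the members' mean. Members with the smallest adjusted p for a difference between cycles were also to be given, but all members tied. Beyond that rule, STB3 and CKA2 were named. NOP1 and UTP20 were given in full, as the third shared snoRNP protein and for its probe sets. The gene order came from the R64 assembly. Promoter and protein sequences were not used here.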

Additional observations from a re-analysis of the deposited data

Results flagged for a closer look

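From position 8 to position 9 the members moved in opposite directions in different cycles. The step was up in 41 of 41 members in cycle 1, down in 39 of 41 in cycle 2, all but UTP22 and UTP20, and down in 41 of 41 in cycle 3. With 1 array at each position of a cycle the difference was not tested.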

How the results depend on the processing

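All 41 members stayed called cycling and higher at positions 8 and 9 than at 2 and 3 under 2 other pseudocounts, quantile normalization, the mean of all probe sets, no mean-variance trend, the replicate block and the loss of each cycle, as did the 35 members left without the dimmest 25% of genes. The count with a swing of at least 2-fold was 29 with a pseudocount of 1, against 20.9% of all genes. The count lower at positions 1 and 2 than at 11 and 12 ran from 26 to 41, and the share of all genes from 9.39% to 23.2%. The members higher at positions 10 and 11 than at 6 and 7 numbered 0 to 5 without 1 cycle, against 16.5% to 22.1% of all genes. Those lower numbered 0 to 3 without 1 cycle, against 16.0% to 22.6%, and 1 under quantile normalization, against 24.4%. The count whose course differed from the other members ran from 5 to 13 without 1 cycle, against 93.4% to 94.9% of all genes. The cause of these shifts was not tested, beyond the smaller number of arrays in fits without a cycle. Under quantile normalization the members' mean log2 value at positions 7 to 10 of each cycle moved by at most 0.22. The deviations of arrays of the same cycle from the position means had correlations with a median of 0.02 and a lowest value of -0.68, so not every pair deviated together, and the cycle numbers were not taken as a pairing. This does not show that arrays of a cycle are independent. With the cycles as a replicate block 41 members were called cycling and 20 differed in course from the others. The block left 2 members called higher at positions 10 and 11, in place of 3, and moved no other count of the members. Dim genes limit the precision, since no background level was used here.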
